A study of Mus musculus with 8 samples.

Results

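The interaction of T cell stimulation and dorsomorphin is the amount by which the effect of dorsomorphin on a gene differed between stimulated and unstimulated mouse CD4+ T cells. It was computed as (stimulated with dorsomorphin minus stimulated) minus (dorsomorphin minus control) on log2 signals, and it uses all 8 arrays of the series, 2 in each of 4 groups. A positive value means that dorsomorphin left the gene higher, or less reduced, in stimulated than in unstimulated cells, and a negative value means the opposite. Each gene was represented by the probe set with the highest mean, which gave 18193 genes. Of these, 13983 passed the filter on low signals and were tested, and 12 (0.0858%) passed the interaction threshold, an adjusted p under 0.05.

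All arrays hold total RNA of primary CD4+ T cells from BALB/c mice, kept in culture and treated in 4 ways. The control cells received neither stimulus nor drug, and the dorsomorphin cells received the drug without stimulus. The stimulated cells were exposed to plate-bound anti-CD3 and soluble anti-CD28 antibodies, and the fourth group received these antibodies and dorsomorphin. The stimulus came first and lasted 1 hour before 4 μM dorsomorphin or DMSO, the solvent, was added for 6 hours. Any interaction thus concerns a drug that met cells already activated for 1 hour. The sources used here give neither the purification of the cells nor whether the 2 arrays of a group come from separate animals or cultures, so the p-values rest on a spread that may be technical.

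Engagement of the T cell receptor and of the costimulatory receptor CD28 switches on early growth response factors, Myc and cytokine genes, and then the ribosome assembly and metabolism of a growing cell. At the same time, genes that keep a naive T cell quiescent and homing to lymph nodes are shut off. Dorsomorphin is a small kinase inhibitor that blocks the type I receptors of bone morphogenetic proteins (BMPs), which signal through SMAD1, SMAD5 and SMAD8 to targets such as the Id genes, and it also inhibits the AMP-activated kinase AMPK.

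The labelled cell type was checked against its markers. Cd3d signal lay between 9033 and 22438 on the 8 arrays, and Cd3e, Cd3g, Cd247, Cd4 and Thy1 were above the working floor on all 8; Cd4 itself ranged from 250 to 2073. The working floor, below which a signal was treated as dim, was the 40th percentile of all log2 values, 5.22, or a signal of 37.3. Of the markers of other cells, the B cell gene Cd79a was above the floor on 2 arrays. The myeloid genes Itgam and Itgax were above it on 3 and 4, and the natural killer gene Ncr1 on 3. The myeloid genes Lyz2 (213 to 1713), Cd14 (119 to 529), Csf1r (102 to 601), Adgre1 (67.4 to 335) and Tyrobp (106 to 816) exceeded it on all 8. So did the CD8 gene Cd8b1 (88.4 to 427). Ms4a1 and Cd79b of B cells, and Cd8a, Klrd1 and Nkg7 of CD8 and natural killer cells, exceeded it on 7. Arrays of one group correlated at 0.937 to 0.952 over the 13983 tested genes. Array medians ran from a signal of 45.4, on the second stimulated array, to 74.5, on the first control array, and the median interaction over all tested genes was 0.35 rather than 0. Centring every array on its median moved that value to -0.12, cyclic loess to 0.05 and quantile normalization to 0.09, so list medians below are read against the median of all genes. The number of arrays limits the precision: with 8 arrays and 4 residual degrees of freedom, the median standard error of an interaction was 0.52 log2 units, and the median half-width of its 95% interval was 1.28. In bulk RNA such as this, fewer cells of a type and less RNA per cell cannot be told apart.

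Of the 13983 genes tested with limma and Benjamini-Hochberg adjustment, 5 had a positive interaction past the threshold (0.0358%) and 7 a negative one (0.0501%). The 7 negative genes were Spry1, Tnfsf14, Egr2, Pdcd1lg2, Ccdc86, Myc and Slc35d3, and the 5 positive genes were Galnt9, Apobec1, A830005F24Rik, Ift172 and Ripor1. The short list stands at the edge of a much larger set. At an unadjusted p under 0.05 there were 3687 genes (26.4%), of which 2473 were positive (17.7%) and 1214 negative (8.68%), while 93 genes had an adjusted p below 0.055, 153 below 0.06 and 1555 below 0.1. None had an adjusted p below 0.01.

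The number of genes called turned on the treatment of dim genes and on single arrays. With the filter raised to the 60th percentile of all values, called the stricter filter here, 9640 genes were tested, and 1231 positive (12.8%) and 636 negative (6.6%) interactions passed. Under that filter the split moved to 475 positive and 485 negative with median centring. It also rested on both control arrays: 5 genes passed without the first and 2 without the second, against 1155 without the first dorsomorphin array, 124 without the second, 658 without the second stimulated array and 326 without the first stimulated array given dorsomorphin. With the filter as reported, no gene passed after median centring (2783 at an unadjusted p under 0.05) or after leaving out any 1 array (2453 to 3687 at an unadjusted p under 0.05) except the first stimulated array, without which 803 passed. In 4 fits that damp the spread of dim values (dim values raised to the floor, 32 added to every signal, the stricter filter, and a moderated variance with trend and robust settings), 807 genes were positive in every one (5.77%) and 460 negative in every one (3.29%). That set of 1267 genes held 10 of the 12 genes, all but A830005F24Rik and Slc35d3. None of the 1267 had the opposite sign when the interaction was computed on linear signals.

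**Figure D1:**
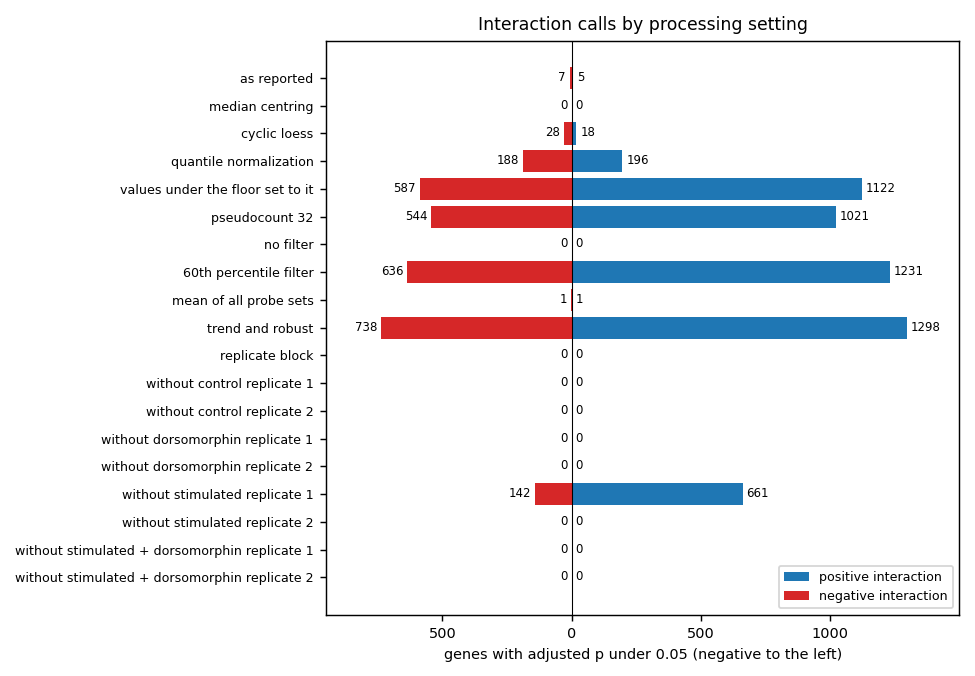
Number of genes with a Benjamini-Hochberg adjusted p under 0.05 for the interaction under each single change of the processing, with positive interactions to the right and negative ones to the left of 0. The reported setting gave 5 positive and 7 negative genes, and the settings plotted ranged from 0 to 1298 positive and from 0 to 738 negative genes. Combinations with the 60th percentile filter are not plotted and reached 2061 and 1067.

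**Figure D2:**
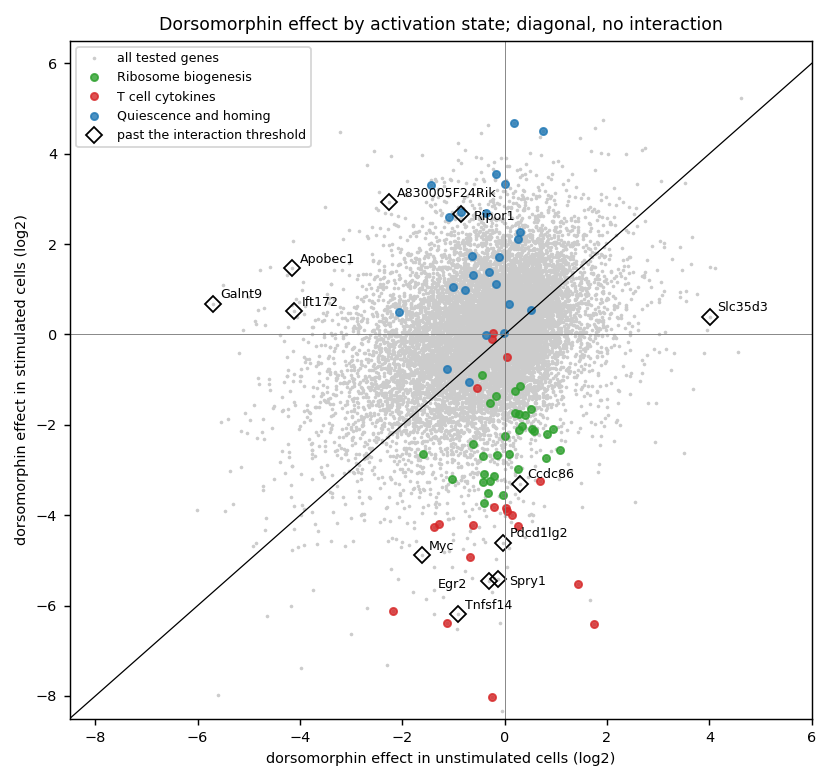
Log2 dorsomorphin effect in stimulated cells (vertical) against that in unstimulated cells (horizontal), 1 point per tested gene; the diagonal marks equal effects, so the vertical distance from it is the interaction. Both axes rest on the same fit over all 8 arrays. All ribosome biogenesis genes and 17 of 19 cytokine genes lie below the diagonal, most with small horizontal and large negative vertical values. Quiescence genes lie mostly above it.

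Spry1 encodes Sprouty1, a feedback inhibitor of receptor signalling to the MAP kinase ERK. Its signals were 148 and 106 in control cells, 119 and 110 with dorsomorphin, 6954 and 7192 after stimulation, and 155 and 176 after stimulation with dorsomorphin. Only the 2 stimulated arrays without drug were high, and the other 6 arrays lay within a narrow low range. Dorsomorphin lowered Spry1 by 42.8-fold in stimulated cells, and its effect in unstimulated cells was -0.13, which gave an interaction of -5.29 ± 0.35 (SE, n = 2 arrays a group, limma adjusted p = 0.0405). Egr2, an early growth response factor that restrains T cell activation, had the same shape. Its signals were 148 and 102 in control, 91.4 and 107 with dorsomorphin, 9162 and 8964 after stimulation, and 170 and 251 with both, for an interaction of -5.14 ± 0.43 (limma adjusted p = 0.0492). A second Egr2 probe set gave -3.49.

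Myc, the transcription factor that drives growth of activated T cells, was the only gene of the 12 that dorsomorphin lowered past the threshold in both states. Its signals were 1115 and 952 in control and 327 and 342 with dorsomorphin, then 11413 and 12034 after stimulation and 369 and 426 with both. The groups with dorsomorphin thus lay below the control group whether or not the cells were stimulated. The drug lowered Myc by 3.08-fold in unstimulated cells (limma adjusted p = 0.014) and by 29.6-fold in stimulated cells (limma adjusted p = 0.0031), and the interaction was -3.26 ± 0.30 (limma adjusted p = 0.0492).

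A pair of surface ligands followed. Tnfsf14, which encodes the TNF family ligand LIGHT, measured 46.7 and 51.3 in control, 20.4 and 33.0 with dorsomorphin, 586 and 658 after stimulation, and 7.38 and 9.74 with both. The values with dorsomorphin lay under the floor in both states, so the interaction of -5.28 ± 0.44 (limma adjusted p = 0.0492) became -3.67 with dim values raised to the floor, and the fall in stimulated cells was then at least 16.7-fold. A second Tnfsf14 probe set gave -4.66. Pdcd1lg2, which encodes PD-L2, a ligand of the inhibitory receptor PD-1, measured 77.7 and 80.1 in control, 93.4 and 63.0 with dorsomorphin, 1708 and 1727 after stimulation, and 61.1 and 81.3 with both. Here too only the stimulated arrays without drug stood apart, and the interaction was -4.57 ± 0.40 (limma adjusted p = 0.0492), with a dorsomorphin effect of -0.04 in unstimulated cells.

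Ccdc86 encodes a coiled-coil protein of the nucleolus. Its signals were 289 and 270 in control, 303 and 393 with dorsomorphin, 2797 and 3251 after stimulation, and 289 and 323 with both, and the interaction was -3.61 ± 0.33 (limma adjusted p = 0.0492). The 3 other groups lay between 270 and 393, far below the stimulated arrays, and 2 further probe sets gave -3.55 and -2.10. Slc35d3, of a family of nucleotide sugar transporters, differs from the other 6: its signals were 3.52 and 3.43 in control, 49.7 and 63.8 with dorsomorphin, 39.8 and 35.4 after stimulation, and 48.0 and 50.8 with both. Its interaction of -3.62 ± 0.32 (limma adjusted p = 0.0492) rested on the 2 dim control values, and it was -0.24 once dim values were raised to the floor.

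The promoters of 2 of these genes, the nucleolar Ccdc86 and the ligand gene Pdcd1lg2, are shown because their windows held one of the motifs searched. The sequences are the 250 bases before the gene start in RefSeq's table for GRCm38.p6, written 5′ to 3′ on the gene's strand, with the motif in capitals.
Ccdc86 (chr19:10949267-10949516, minus strand, cyclic AMP response element TGACGTCA in capitals, 23 bases before the start): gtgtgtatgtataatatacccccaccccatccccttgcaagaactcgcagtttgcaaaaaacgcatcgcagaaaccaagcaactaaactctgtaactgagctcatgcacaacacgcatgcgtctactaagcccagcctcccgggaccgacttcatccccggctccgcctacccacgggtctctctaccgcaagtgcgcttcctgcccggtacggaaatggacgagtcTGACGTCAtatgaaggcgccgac
Pdcd1lg2 (chr19:29410669-29410918, plus strand, NFAT core GGAAAA in capitals, 22 bases before the start): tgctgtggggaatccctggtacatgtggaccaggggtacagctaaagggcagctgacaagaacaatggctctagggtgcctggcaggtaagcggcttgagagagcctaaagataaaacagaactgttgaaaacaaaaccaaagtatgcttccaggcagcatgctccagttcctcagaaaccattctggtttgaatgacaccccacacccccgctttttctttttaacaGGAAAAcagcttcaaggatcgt
These matches describe letters only. On both strands, TGACGTCA was found in any promoter window for 1.77% of 27025 genes, and GGAAAA for 22.9%.

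Among the 5 positive genes, Ripor1 was the only one with all 4 group means above the floor. It encodes a regulator of cell polarity. Its signals were 815 and 745 in control, 429 and 431 with dorsomorphin, 83.4 and 65.7 after stimulation, and 503 and 435 with both. Stimulation took it far below the other groups, and the groups with dorsomorphin lay close together in between. In stimulated cells dorsomorphin raised it by 6.32-fold (limma adjusted p = 0.0058), and the interaction was 3.52 ± 0.32 (limma adjusted p = 0.0492). A second, dim Ripor1 probe set gave 1.79 with a standard error of 1.62. Its promoter window held none of the 5 motifs searched, and it is printed as the counterpart of those above.
Ripor1 (chr8:105604979-105605228, plus strand, no match, no capitals): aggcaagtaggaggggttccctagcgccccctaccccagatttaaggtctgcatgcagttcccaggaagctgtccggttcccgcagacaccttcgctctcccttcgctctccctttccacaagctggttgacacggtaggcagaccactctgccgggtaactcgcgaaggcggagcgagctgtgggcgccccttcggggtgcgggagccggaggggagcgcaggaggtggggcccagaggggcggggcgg

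Like Ripor1, the 4 other positive genes were highest in control cells. Galnt9, a glycosyltransferase that starts O-linked glycans, measured 323 and 289 in control, 4.94 and 7.10 with dorsomorphin, 39.6 and 40.7 after stimulation, and 60.6 and 68.5 with both. Its interaction was 6.37 ± 0.36 (limma adjusted p = 0.0349), and 3.72 with dim values raised to the floor, since its group with dorsomorphin lay under it. Apobec1, an RNA-editing cytidine deaminase, measured 217 and 261 in control, 16.2 and 11.1 with dorsomorphin, 18.3 and 29.2 after stimulation, and 75.6 and 53.7 with both. The drug effect on Apobec1 was -4.15 in unstimulated and 1.46 in stimulated cells, an interaction of 5.61 ± 0.50 (limma adjusted p = 0.0492), or 3.45 with dim values raised. Both genes were lowered by the drug in unstimulated cells, and with dorsomorphin their signals were higher in stimulated than in unstimulated cells.

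Ift172, a part of the transport machinery of cilia, measured 212 and 215 in control and between 5.18 and 12.7 on the other 6 arrays, all under the floor. Its interaction was 4.63 ± 0.33 (limma adjusted p = 0.0419), or 2.52 with dim values raised to the floor, where every group but control then lay. A830005F24Rik, a clone-named transcript, measured 73.9 and 71.8 in control, 19.4 and 12 with dorsomorphin, 5.98 and 5.22 after stimulation, and 49.4 and 36.4 with both, and its interaction of 5.18 became 1.17 with dim values raised. Markers of myeloid and dendritic cells were, as a sum, also highest in control cells. Their summed signal was 20320 to 29950 on the control arrays, 7120 to 7225 with dorsomorphin, 8150 to 13100 after stimulation and 7417 to 8421 with both. Not every marker followed the sum, as Itgax measured 69.1 and 36.7 in control and 150 and 19.4 after stimulation. All 21 tested markers had a positive value, with a median interaction of 1.14 against 0.35 for all genes. Under the stricter filter 2 of 18 tested markers were positive, near the 12.8% of all genes. None of these markers was at 0, Itgam was under the floor on all arrays but 3, and their part in the positive genes high in control was not tested. The 9 tested B cell markers also had positive values, with a median of 1.47 and a summed signal of 6880 to 12500 in control, 4204 to 11670 with dorsomorphin, 2805 to 3731 after stimulation and 4896 to 8683 with both. Most were close to the floor of log2 5.22: their median level ran from log2 5.16 to 6.36 over the arrays. Under the stricter filter 2 of them were tested and 1 was positive, against 12.8% of all genes.

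**Figure D3:**
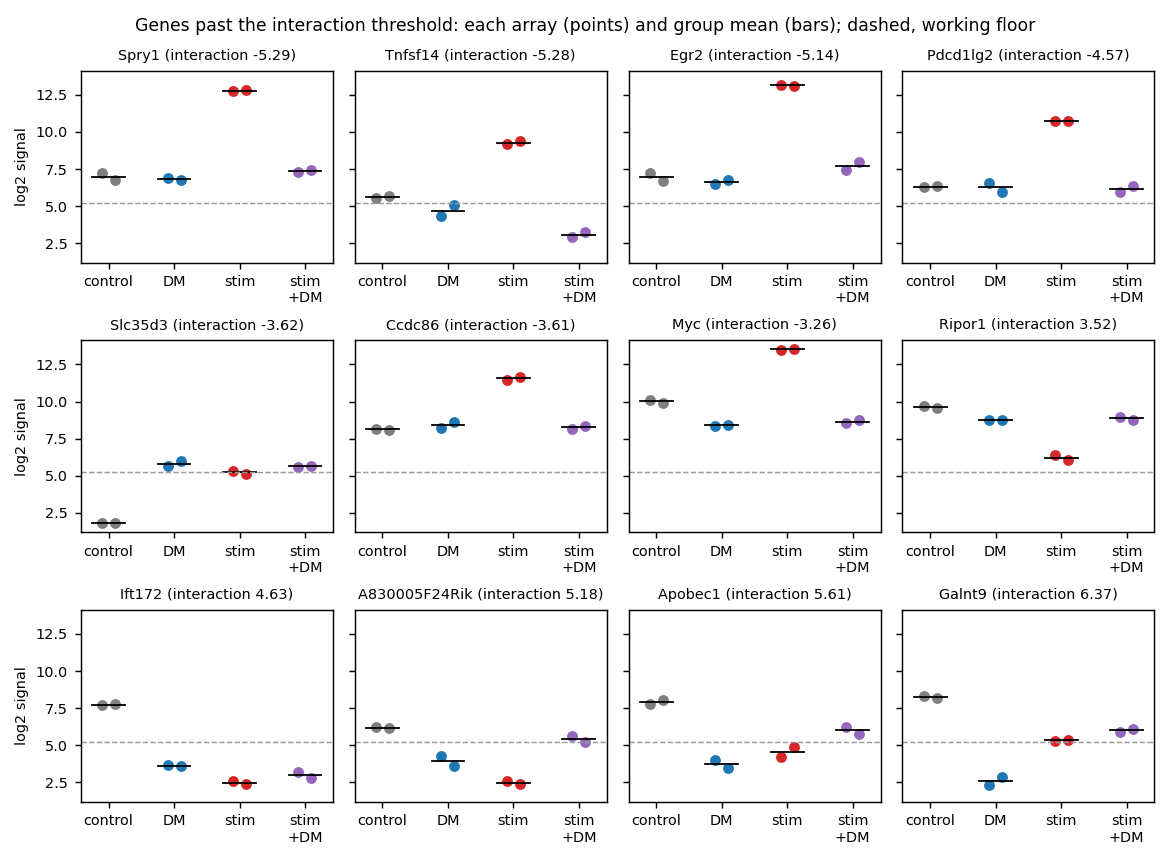
Log2 signal on each array (points) and group mean (bars) of the 12 genes past the interaction threshold, in control cells, with dorsomorphin (DM), after stimulation (stim) and after stimulation with dorsomorphin; the dashed line is the working floor of 5.22. Spry1, Tnfsf14, Egr2, Pdcd1lg2, Ccdc86 and Myc were high in the stimulated group alone, whereas Galnt9, Ift172, A830005F24Rik, Apobec1 and Ripor1 were highest in control cells.

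An interaction can arise in stimulated cells, in unstimulated cells or in both, and the 12 genes were sorted by which of the dorsomorphin effects passed its own threshold in the same fit. These contrasts share arrays with the interaction, so the sorting is a description. Over all tested genes, the drug effect passed upwards for 1.92% and downwards for 11.1% in unstimulated cells, and for 9.71% and 12.4% in stimulated cells. The effect passed in stimulated cells alone for 6 genes (Ripor1 positive, and Spry1, Tnfsf14, Egr2, Pdcd1lg2 and Ccdc86 negative) and in unstimulated cells alone for 3 (Galnt9 and Ift172 positive, Slc35d3 negative). It passed in both in the same direction for Myc and in opposite directions for Apobec1 and A830005F24Rik.

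At an adjusted p under 0.1, where 1014 positive (7.25%) and 541 negative (3.87%) interactions passed, the drug effect passed that threshold in stimulated cells alone for 439 positive and 428 negative genes, and in unstimulated cells alone for 372 positive and 32 negative genes. It passed in both states in the same direction for 65 and 53, in opposite directions for 123 and 25, and in neither for 15 and 3. The 428 negative genes had a median dorsomorphin effect of 0.10 in unstimulated and -2.07 in stimulated cells. For the 372 positive genes these medians were -1.90 and 0.33. Both pairs of medians describe genes sorted by these same effects and support nothing further. Over all 13983 genes, stimulation without dorsomorphin passed the threshold upwards for 1256 genes (8.98%) and downwards for 2013 (14.4%), and stimulation with it passed in limma for 0 genes, 0.0% in either direction (539 at an unadjusted p under 0.05).

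Named examples show these shapes at the threshold of 0.1. They were picked from the 5 largest interactions per pattern and direction with all 4 group means above the floor, and are not always the largest. Mettl1, a tRNA methyltransferase, changed in stimulated cells alone: its signals were 62.8 and 54.2 in control, 87.9 and 67.8 with dorsomorphin, 2460 and 2257 after stimulation, and 75.2 and 148 with both, an interaction of -4.88 ± 0.52 (limma adjusted p = 0.0536). St8sia6, a sialyltransferase, did so in the other direction, with signals of 12605 and 15277, then 10990 and 11071, then 747 and 305, and finally 10721 and 3887 in the same order, and an interaction of 4.09 ± 0.86. The stimulated arrays without drug were the lowest, and those with both treatments lay between them and the unstimulated arrays.

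Dapl1 moved in unstimulated cells alone. Its signals were 4934 and 4406 in control, 195 and 83.0 with dorsomorphin, 314 and 269 after stimulation, and 275 and 172 with both, an interaction of 4.78 ± 0.65 (limma adjusted p = 0.0546). Control cells stood apart, and the other 6 arrays lay between 83.0 and 314. Arhgef18 had the same form, from 8447 and 8280 in control to between 167 and 948 on the other 6 arrays, with an interaction of 4.38 ± 1.10.

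Adh1, an alcohol dehydrogenase, moved in opposite directions: 804 and 942 in control, 216 and 119 with dorsomorphin, 88.7 and 53.3 after stimulation, and 331 and 377 with both. The interaction was 4.80 ± 0.56 (limma adjusted p = 0.0543), from a drug effect of -2.44 in unstimulated and 2.36 in stimulated cells. Ikbke, a kinase of innate immune signalling, was lowered in both states, with effects of -4.89 and -1.57 and an interaction of 3.32 ± 0.52. On its arrays the signals were 7070 and 7024 in control, 250 and 226 with dorsomorphin, 1614 and 814 after stimulation, and 338 and 441 with both.

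The effector genes of activated T cells were the group with the most negative interactions. The lists of genes used here were chosen with results of these data known, so their counts and medians are descriptions and their direction is no independent evidence. Of 19 cytokine genes tested, 17 had a negative value, and the median interaction was -3.94 against 0.35 for all genes; the median ranged from -4.47 to -3.37 when each array was left out. In limma 0 passed the reported threshold (14 negative and 0 positive at an unadjusted p under 0.05), and under the stricter filter 11 of 17 tested were negative and none positive, against 6.6% and 12.8% of all genes. Il2, the growth factor of T cells, measured 30.5 and 80.8 in control, 23.0 and 75.7 with dorsomorphin, 6414 and 18509 after stimulation, and 18.8 and 93.7 with both. Only the stimulated arrays were high, and the paired arrays of each group lay far apart, and the interaction was -7.77 ± 1.49 (limma adjusted p = 0.020 under the stricter filter).

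Ifng, the signature cytokine of T helper 1 cells, measured 71.1 and 62.5 in control, 21.0 and 44.1 with dorsomorphin, 3448 and 6408 after stimulation, and 41.3 and 75.8 with both, an interaction of -5.26 ± 0.74. The T helper 2 genes Il13 and Il5 had interactions of -6.96 ± 0.86 and -4.51 ± 1.13, and Tnf had -3.94 ± 0.85. These 4 passed under the stricter filter, whereas Il4 at -3.95 ± 1.54 and Csf2 at -2.88 ± 2.11 did not. The Il13 group means lay under the floor in every group but the stimulated one, and its interaction became -3.77 with dim values raised to the floor. Ltb, which encodes a membrane lymphotoxin and was bright on every array, from 16807 to 29133, had an interaction of 0.28 ± 0.37.

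Chemokine genes had a median of -2.47 over 15 tested, with 5 negative and none positive under the stricter filter. Ccl1 measured 12.7 and 34.3 in control, 11.3 and 34.1 with dorsomorphin, 3514 and 8675 after stimulation, and 39.6 and 112 with both, an interaction of -6.29 ± 1.23. The 5 that passed were Ccl1, Xcl1, Ccl4, Ccl3 and Ccl22. Ccl5 and Cxcl16, at 0.37 ± 0.66 and -0.02 ± 0.40, did not.

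Transcription factors induced by activation had a median of -1.74 over 30 tested. Egr2 and Myc passed the reported threshold, and under the stricter filter 11 of 26 tested were negative and none positive. Nr4a3, an orphan nuclear receptor induced by antigen receptor signals, measured 678 and 397 in control, 530 and 514 with dorsomorphin, 15978 and 10060 after stimulation, and 708 and 854 with both, an interaction of -4.04 ± 0.51. Hivep3, Tbx21, the T helper 1 regulator, and Irf4 had interactions of -5.01 ± 1.08, -3.87 ± 0.69 and -4.26 ± 1.21. The AP-1 subunit genes Fos at -1.04 ± 1.26, Junb at -0.35 ± 0.43 and Jund at 0.28 ± 0.93 did not pass, and the paired Jun arrays differed several-fold in every group, from 2257 and 382 in control to 2658 and 620 with both treatments.

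Surface molecules of activation had a median of -1.73 over 25 tested, with Tnfsf14 past the reported threshold and 9 of 23 negative under the stricter filter. Cd69, the early activation antigen, measured 1489 and 823 in control, 2029 and 4432 with dorsomorphin, 13282 and 13393 after stimulation, and 2519 and 3516 with both, an interaction of -3.60 ± 0.67. Tfrc, the transferrin receptor, had -2.60 ± 0.42, Pdcd1, which encodes PD-1, -1.98 ± 0.34, and Il2ra, the alpha chain of the Il2 receptor, -3.77 ± 1.14. The costimulatory receptor Icos (-0.44 ± 0.64) and the inhibitory receptor Ctla4 (-0.42 ± 0.47) did not pass. Beside Spry1, 4 Sprouty proteins and MAP kinase phosphatases were negative under the stricter filter among 11 tested, Dusp6 at -3.59 ± 0.48, Spred1 at -2.76 ± 0.37, Dusp4 at -2.31 ± 0.62 and Dusp2 at -1.21 ± 0.33. Dusp10 pointed the other way at 1.82 ± 0.68 and did not pass. In Cd274, which encodes PD-L1, the second array with both treatments (6132) was as high as the stimulated arrays (6060 and 4108), while the first (500) was not.

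Ribosome biogenesis was the list with the most members past the stricter filter, 28 of 32 negative and none positive. All 32 members had a negative value, the median was -2.46, and it lay between -2.82 and -2.11 with each array left out. In limma 0 passed the reported threshold, and 31 had an unadjusted p under 0.05. Nop2, a nucleolar RNA methyltransferase, measured 470 and 475 in control, 352 and 358 with dorsomorphin, 3763 and 4113 after stimulation, and 467 and 458 with both, an interaction of -2.68 ± 0.28. Nolc1, a nucleolar phosphoprotein, measured 832 and 836, then 1452 and 2123, then 9468 and 11487, and 1459 and 2162 in the same order, with an interaction of -3.63 ± 0.44. For Nop2 the other 6 arrays lay between 352 and 475, and for Nolc1 between 832 and 2162, well below the stimulated arrays in both cases. Polr1b, a subunit of RNA polymerase I, and Bysl, of the small ribosomal subunit pathway, had -3.33 ± 0.39 and -3.54 ± 0.42. Npm1 was nearest to 0, at -0.44 ± 0.34.

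The Nop2 promoter is printed for its E-box CACGTG, the letters bound by Myc family proteins, in capitals 60 bases before the start (RefSeq, GRCm38.p6).
Nop2 (chr6:125131633-125131882, plus strand): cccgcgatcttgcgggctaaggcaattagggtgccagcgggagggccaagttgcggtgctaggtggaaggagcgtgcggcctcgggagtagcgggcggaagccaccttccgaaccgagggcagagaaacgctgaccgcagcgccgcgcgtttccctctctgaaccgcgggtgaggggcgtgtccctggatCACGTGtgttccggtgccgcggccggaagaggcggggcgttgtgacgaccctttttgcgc
The E-box was found in any window for 2 of 30 ribosome biogenesis genes (6.67%) and for 6.86% of all 27025 genes. Among the 7902 genes with a window that were tested under the stricter filter, the share was 10.5%. The E-box was found for 14.2% of the 529 such genes with a negative interaction and for 9.47% of the 1003 with a positive one. For the AP-1 motif TGANTCA the shares were 4.88% among tested genes, 3.78% among negative and 5.28% among positive ones. They were 21.2%, 22.1% and 22.7% for the NFAT core GGAAAA, 10.5%, 7.94% and 12.2% for the EGR motif GCGNGGGCG, and 3.28%, 3.4% and 2.39% for TGACGTCA. These shares were not tested.

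The ribosomal proteins themselves had a median interaction of 0.08 over 27 tested, -0.40 with median centring and 0.34 with cyclic loess. Of the members, 1, Rpl12 at -1.89 ± 0.50, was negative under the stricter filter. Rps20 measured 48972 and 51636 in control, 48392 and 58921 with dorsomorphin, 37840 and 40290 after stimulation, and 47165 and 50657 with both, with an interaction of 0.24 ± 0.30.

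Aminoacyl-tRNA synthetases, which charge transfer RNAs, had a median of -1.43 over 19 tested and 9 negative under the stricter filter, with Tars at -2.01 ± 0.37 and Eprs at -1.90 ± 0.30. Genes of serine, one-carbon and amino acid supply had a median of -1.32 over 24, with 9 of 21 negative. Psat1, an enzyme of serine synthesis, measured 481 and 416 in control, 487 and 366 with dorsomorphin, 5088 and 6085 after stimulation, and 495 and 718 with both, an interaction of -3.14 ± 0.41. Shmt2, the mitochondrial serine hydroxymethyltransferase, had -2.84 ± 0.36, and Slc7a5, a carrier of large neutral amino acids, had -3.42 ± 0.58. Atf4, the transcription factor that induces many of these genes, measured 4602 and 4455, then 9268 and 8986, then 8557 and 10089, then 7687 and 9524 in the same order. Its signal was higher than in control in each of the 3 treated groups, whose ranges overlapped, and the interaction was -1.13 ± 0.32 (limma adjusted p = 0.042 under the stricter filter).

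Of the purine, pyrimidine and polyamine genes, 9 were negative and 1 positive under the stricter filter among 23 tested, and the median was -1.24. Srm, the spermidine synthase, measured 642 and 722 in control, 409 and 491 with dorsomorphin, 13255 and 16979 after stimulation, and 422 and 867 with both, an interaction of -4.03 ± 0.54. Ctps, a cytidine triphosphate synthase, had -3.29 ± 0.58, whereas its paralogue Ctps2 was the positive member, with 3710 and 3707 in control, 487 and 344 with dorsomorphin, 609 and 238 after stimulation, 456 and 521 with both and an interaction of 3.54 ± 0.66. The paralogues thus lay on opposite sides, Ctps high in stimulated cells alone and Ctps2 high in control cells alone. Glycolysis genes had a median of -0.72 over 18 and 5 of 16 negative, led by hexokinase Hk2 at -3.41 ± 0.77. Cholesterol and fatty acid synthesis had a median of -0.25 over 24 (-0.52 to 0.05 with each array left out) and 5 of 23 negative (Fasn, Cyp51, Idi1, Sqle and Acaca), while Hmgcs1, an early enzyme of the pathway, had -0.97 ± 0.33 and did not pass.

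Genes of protein folding had mostly negative values. Endoplasmic reticulum genes had a median of -0.70 over 21 and 7 negative under the stricter filter, and chaperones had -1.05 over 20 and 5 negative. Hspa5, the chaperone BiP, measured 6368 and 7248 in control, 6597 and 11369 with dorsomorphin, 24748 and 26330 after stimulation, and 6902 and 10625 with both, an interaction of -1.93 ± 0.50. Hspd1, the mitochondrial chaperonin, had -2.51 ± 0.68. Of the same lists, Edem1 (0.39 ± 0.28) was raised by dorsomorphin in both states, by 1.59 and 1.98 log2 units.

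**Figure D4:**
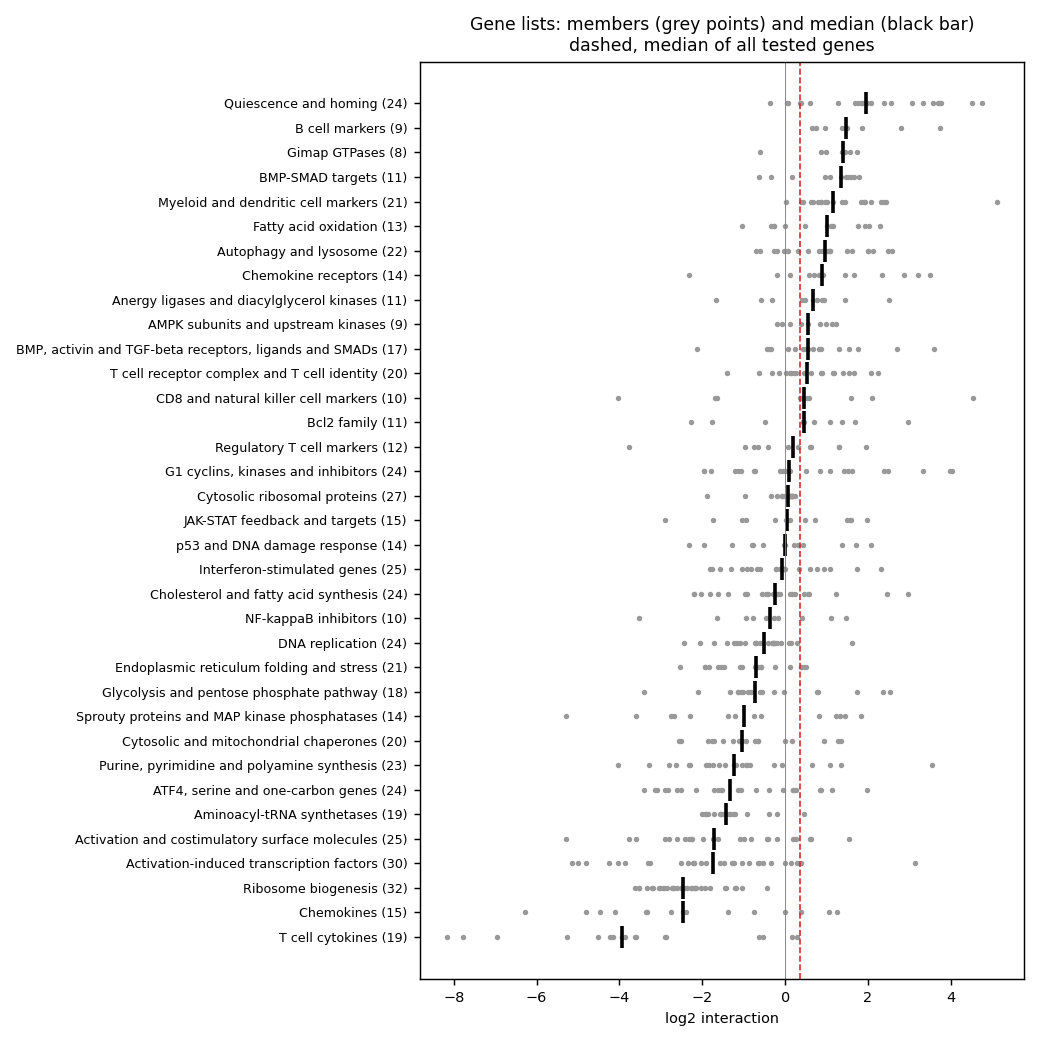
Log2 interaction of each tested member (grey points) and the median (black bar) of 35 gene lists, with the number of members in brackets; the dashed line is the median of all tested genes, 0.35. Cytokines, chemokines and ribosome biogenesis lie lowest, at -3.94, -2.47 and -2.46, and quiescence and homing genes highest, at 1.95.

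Quiescence and lymph node homing genes had the most positive median, 1.95 over 24 tested, with 8 positive and none negative under the stricter filter and 0 past the reported threshold (15 positive and 0 negative at an unadjusted p under 0.05). Sesn1, a sestrin that restrains growth signalling, measured 9974 and 8854 in control, 8643 and 6187 with dorsomorphin, 1217 and 715 after stimulation, and 8462 and 4316 with both, an interaction of 3.06 ± 0.61. Stimulated cells without drug stood below all the other arrays. Foxo1, the transcription factor that maintains the naive state, had 1.83 ± 0.49, Lef1 1.75 ± 0.35 and Pik3ip1, an inhibitor of PI3 kinase, 4.75 ± 1.31.

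The stimulated arrays parted for several of these genes, the second being the lower one. Tsc22d3, the glucocorticoid-induced leucine zipper gene, measured 12211 and 9469 in control, 18792 and 17155 with dorsomorphin, 1616 and 238 after stimulation, and 17207 and 11312 with both, an interaction of 3.75 ± 1.21 that missed the threshold under both filters. The stimulated arrays also differed for Il7r, at 2810 and 504, and for S1pr1, the receptor for exit from lymph nodes, at 999 and 96.4. Over the list, 22 of 24 members were higher on the first stimulated array, with a median difference of 0.83 log2 units against 0.14 for all genes. Klf2, the homing regulator, measured 23106 and 19981 in control, 15997 and 11892 with dorsomorphin, 6689 and 2078 after stimulation, and 15125 and 10210 with both, an interaction of 2.38 ± 0.81 that did not pass. With each array left out in turn the median of the list lay between 1.58 and 2.47.

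**Figure D5:**
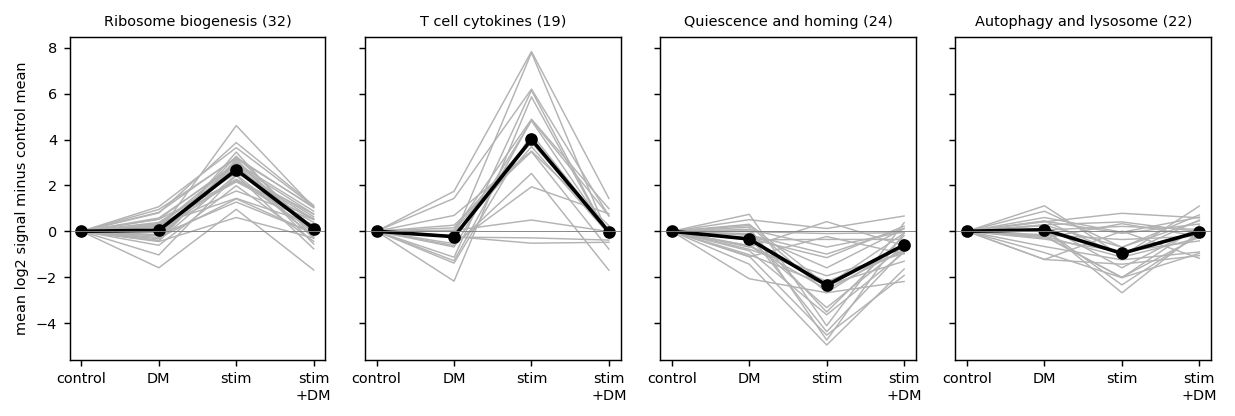
Group mean log2 signal minus the control mean, for each tested member (grey lines) and the list median (black), of ribosome biogenesis, T cell cytokines, quiescence and homing, and autophagy and lysosome genes in control, dorsomorphin (DM), stimulated and stimulated plus dorsomorphin cells. The ribosome biogenesis median is 2.68 in stimulated cells and near 0 in the group with both treatments, the cytokine median has the same shape, and the quiescence median is -2.35 in stimulated cells.

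Receptors that guide migration had a median of 0.88 over 14 tested, with 4 of 10 positive under the stricter filter (S1pr4, Ccr2, Cxcr4 and Cxcr5). Cxcr4, the receptor for a chemokine of bone marrow and lymphoid stroma, measured 3187 and 2984 in control, 3693 and 5174 with dorsomorphin, 716 and 139 after stimulation, and 4802 and 5355 with both, an interaction of 3.50 ± 1.03. The Gimap GTPases, which support survival of naive lymphocytes, had a median of 1.39 over 8 with 3 positive. Gimap7 measured 3020 and 3471, then 1377 and 1312, then 1216 and 1223, then 1170 and 1597, an interaction of 1.43 ± 0.34. The 3 treated groups lay between 1170 and 1597, all below control.

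The T cell receptor complex had smaller interactions, with a median of 0.53 over 20 and 0.06 with median centring. Cd3g, an invariant chain of the receptor, measured 14174 and 13421 in control, 1721 and 853 with dorsomorphin, 8456 and 8996 after stimulation, and 1723 and 1660 with both. Dorsomorphin lowered it in both states, by effects of -3.51 and -2.37, and the interaction of 1.14 ± 0.50 did not pass. Cd3e had 0.62 ± 0.65 and did not pass either. Thy1 (1.66 ± 0.35) and the transcription factor Ets1 (1.39 ± 0.34) were positive under the stricter filter, and the kinase gene Zap70 (-1.40 ± 0.37) was negative. In all, 3 of 20 were positive and 1 negative there, against 12.8% and 6.6% of all genes. Of the regulatory T cell markers, with a median of 0.19 over 12 (-0.28 with median centring), Foxp3 measured 565 and 451, 165 and 144, 876 and 395, and 235 and 329, an interaction of 0.63 ± 0.60 that did not pass.

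Direct targets of BMP signalling through SMAD proteins, which dorsomorphin is known to inhibit, had 9 positive and 2 negative values among 11 tested. The median was 1.35 against 0.35 for all genes, or 0.87 against -0.12 with median centring. Under the stricter filter 2 of 7 were positive, against 12.8% of all genes. Smad6, Atoh8, Msx2 and Nog did not pass the filter on low signals and were not tested. Id3 measured 596 and 549 in control, 63.6 and 103 with dorsomorphin, 298 and 313 after stimulation, and 169 and 111 with both. The drug effect was -2.82 in unstimulated cells (limma adjusted p = 0.012) and -1.15 in stimulated ones (limma adjusted p = 0.058), and the interaction was 1.67 ± 0.47 (limma adjusted p = 0.104, 0.042 under the stricter filter). Id2 had 1.77 ± 0.46. Id1 measured 120 and 69.6, 37.0 and 16.8, 240 and 236, and 31.0 and 56.6, with an interaction of -0.64 ± 0.72 that did not pass.

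Bambi, a decoy receptor, was raised by dorsomorphin in both states by 1.21 and 1.39 log2 units, with an interaction of 0.17 ± 0.36, and the inhibitory Smad7 had 1.47 ± 0.62. Among receptors and SMADs, with a median of 0.55 over 17, Tgfbr3 at 3.60 ± 0.52, Tgfbr2 at 1.75 ± 0.37, Smad4 at 1.54 ± 0.39 and Acvr1b at 1.29 ± 0.29 were positive under the stricter filter and none was negative. Tgfbr3, a co-receptor of the TGF-beta family, measured 2783 and 3114 in control, 1553 and 1196 with dorsomorphin, 503 and 274 after stimulation, and 1765 and 2473 with both. The receptor gene Acvr1, itself a known target protein of dorsomorphin, was raised in both states, with an interaction of 0.07 ± 0.30.

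For genes of AMPK, the other known target of dorsomorphin, the median was 0.56 over 9 and 0.09 with median centring. Under the stricter filter 1 of 9, Prkag1 at 1.22 ± 0.29, was positive, a share near the 12.8% of all genes. Fatty acid oxidation, a process that AMPK favours, had a median of 1.00 over 13 and 3 of 12 positive. Acaa2, a thiolase, measured 1364 and 1691 in control, 610 and 462 with dorsomorphin, 532 and 389 after stimulation, and 677 and 878 with both, an interaction of 2.28 ± 0.42. Cpt1a, which admits fatty acids to mitochondria, had 1.93 ± 0.54 and Hadh 2.02 ± 0.49. Control cells were highest for all 3.

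Autophagy and lysosome genes had a median of 0.95 over 22, with 8 positive and none negative under the stricter filter. Tfeb, the master regulator of lysosome genes, measured 287 and 220 in control, 240 and 196 with dorsomorphin, 77.4 and 49.5 after stimulation, and 315 and 283 with both, an interaction of 2.48 ± 0.43. Atg14, of the kinase complex that starts autophagosomes, had 2.13 ± 0.38 and the protease gene Ctsd 2.01 ± 0.46. In Tfeb and Atg14 the stimulated arrays without drug were lowest and the other 3 groups lay close together.

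Cell cycle genes fell on both sides of 0. G1 regulators had a median of 0.08 over 24 (-0.40 with median centring). Under the stricter filter 4 of 23 were positive and 2 negative, not far from the 12.8% and 6.6% of all genes. E2f2 measured 943 and 765 in control, 302 and 256 with dorsomorphin, 55.4 and 52.7 after stimulation, and 355 and 230 with both, an interaction of 4.01 ± 0.41. The retinoblastoma relative Rbl2 had 2.39 ± 0.38, Ccng2, an atypical cyclin of resting cells, 3.97 ± 0.95 and the inhibitor Cdkn2d 2.48 ± 0.67. Cdk4 and Cdk6, the kinases of G1, were the negative pair at -1.96 ± 0.39 and -1.79 ± 0.52. Cdk4 measured 1034 and 1100, 399 and 377, 3993 and 6265, and 480 and 457 in the same order, so that both groups given dorsomorphin lay below control.

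Interferon-stimulated genes showed how far the arrays of a group could part. Their median was -0.07 over 25, ranging from -1.02 to 0.65 with each array left out, and 0 passed in limma under either filter (1 positive and 1 negative at an unadjusted p under 0.05). Gbp2, an interferon-induced GTPase, measured 12237 and 5960 after stimulation and 1201 and 13858 with both treatments. Over the list the first stimulated array exceeded the second by a median of 1.56 log2 units, and the same difference was -0.94 in the stimulated cells given dorsomorphin. No direction can be read for this list.

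The dorsomorphin effect was close to equal in both states for a limited set of genes. It passed the threshold in the same direction in both for 768 genes (138 higher, 630 lower), and for 77 of them, 28 higher and 49 lower, the 95% interval of the interaction lay between -1 and 1. Ssu72, a phosphatase of RNA polymerase II, had the largest effect among these. Its signals were 5133 and 5603 in control, 404 and 305 with dorsomorphin, 4610 and 5874 after stimulation, and 360 and 355 with both, with drug effects of -3.93 and -3.86 and an interaction of 0.07 ± 0.35. Rcan1, a calcineurin regulator, measured 535 and 510, 63.7 and 55.4, 505 and 653, and 59.0 and 80.6, an interaction of 0.08 ± 0.37. Over the alternative runs the Rcan1 interaction ranged from -1.28 to 0.30, so its equal effect did not hold in every run. Nor was this limited to Rcan1: most of the 77 genes did not meet the interval rule after median centring or with any 1 array left out. Capg, Lrrc14, Dcun1d2, Tmem42 and Cstf2 were lowered alike, and Mir22hg was raised by 2.38 and 2.31 log2 units.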

How the data were processed

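RNA of 8 samples was measured on Affymetrix arrays, 2 in each of 4 groups. The table holds the authors' deposited intensity values for 45101 probe sets on a linear scale; per the submitters' processing notes they were made with RMA in the affy package, whose versions are not given in the sources used here. Of these probe sets, 64 were controls, 34945 had 1 gene symbol, 932 had several and 9160 had none.

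Values were turned into log2, and for each of 18193 genes the brightest probe set, by its mean over the arrays, was kept. Genes above the 40th percentile of all values (log2 5.22) on at least 2 arrays were tested, 13983 in all. The interaction and the simple contrasts came from 1 fit over 8 arrays in limma 3.58.1 (lmFit, contrasts.fit, eBayes) under R 4.3.3, two-sided, with Benjamini-Hochberg adjustment over all tested genes. The script was tested on simulated data. No depth exists for arrays, and precision is limited by their number.

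The alternatives were median centring, cyclic loess, quantile normalization, dim values raised to the floor, a pseudocount of 32, no filter, a 60th percentile filter (log2 6.90), the mean of all probe sets, trend and robust settings, a replicate block, leaving out each array, and thresholds of 0.01 and 0.1. Combinations with the 60th percentile filter and the set called in 4 fits were added after seeing the data.

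Genes were named by these rules: the largest interactions past the threshold in each direction, with or without all group means above the floor; up to 4 members per list with the smallest p; the 5 largest per pattern and direction; the 8 additive genes with the largest mean effect; and a fixed list of 15. After only 12 genes passed, the list rule was also applied under the 60th percentile filter and the pattern rule at a threshold of 0.1. Other list members are named for contrast and were chosen after their values were seen. The lists and the comparison itself were chosen with earlier results of these data known.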

Additional observations from a re-analysis of the deposited data

Results flagged for a closer look

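Each of the 12 genes past the interaction threshold is listed here because the dorsomorphin effect differed between stimulated and unstimulated cells by the test of that difference, the interaction term in limma. The difference, as stimulated minus unstimulated in log2 units, was -5.29 for Spry1, -5.28 for Tnfsf14, -5.14 for Egr2, -4.57 for Pdcd1lg2, -3.62 for Slc35d3, -3.61 for Ccdc86 and -3.26 for Myc. It was 6.37 for Galnt9, 5.61 for Apobec1, 5.18 for A830005F24Rik, 4.63 for Ift172 and 3.52 for Ripor1. All 4 group means were above the floor for 6 of the 12 (Spry1, Egr2, Pdcd1lg2, Ccdc86, Myc and Ripor1).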

How the results depend on the processing

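The counts of calls moved with most settings, while each of the 12 genes kept its sign in every alternative run and passed the threshold in 3 (Slc35d3) to 8 (Galnt9 and Spry1) of them. In limma, positive and negative calls (5 and 7 as reported) were 0 and 0 with median centring, 18 and 28 with cyclic loess, 196 and 188 with quantile normalization, 1122 and 587 with dim values raised to the floor, 1021 and 544 with a pseudocount of 32, 0 and 0 with no filter, 1231 and 636 with the 60th percentile filter, 1 and 1 with the mean of all probe sets, and 1298 and 738 with trend and robust settings. Genes at an unadjusted p under 0.05 numbered 2783 with median centring and 3642 with no filter. Leaving out 1 array gave 0 to 661 positive and 0 to 142 negative calls, both highest without the first stimulated array. With the 60th percentile filter it gave 2 and 3 without the first control array, 1 and 1 without the second, 804 and 351 without the first dorsomorphin array, 62 and 62 without the second, 1633 and 696 without the first stimulated array, 435 and 223 without the second, 179 and 147 without the first array of both treatments, and 1056 and 671 without the second. Added to the 60th percentile filter, median centring gave 475 and 485, cyclic loess 921 and 826, and quantile normalization 1163 and 839, and 807 and 460 were called in all 4 fits.

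With replicate numbers as a block, 0 positive and 0 negative genes passed (4477 at an unadjusted p under 0.05), and 2061 and 1067 with the 60th percentile filter as well. Deviations of same-numbered arrays correlated at 0.069 to 0.178, and 4 of the 6 values were above 0.1. Since not every value was, pairing was not established. The additive genes numbered 147 with the replicate block.

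At a threshold of 0.01 the interaction patterns held 0 genes in stimulated cells alone, 0 in unstimulated cells alone, 0 in both in the same direction and 0 in opposite directions. At 0.1 they held 867, 404, 118 and 148, with 18 in neither. The additive genes (77 as reported) numbered 1 with median centring, 259 with dim values raised, 200 with the pseudocount, 14 with no filter, 235 with the 60th percentile filter, 10 with the mean of probe sets, 271 with trend and robust settings, and 0 to 18 with 1 array left out. The causes of these shifts were not tested. Dim signals limit 6 of the 12 genes, Ift172, Slc35d3, A830005F24Rik, Galnt9, Apobec1 and Tnfsf14, which each have a group mean under the floor.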

Other observations

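Regulators of NF-kB divided by member. Nfkbid, a nuclear IkB protein, measured 492 and 477 in control, 372 and 435 with dorsomorphin, 7359 and 5447 after stimulation, and 369 and 574 with both, an interaction of -3.52 ± 0.43 (limma adjusted p = 0.012 under the 60th percentile filter). Tnip2 was negative too at -1.64 ± 0.38, whereas Tnip1 at 1.47 ± 0.31 and the deubiquitinase gene Cyld at 1.11 ± 0.30 were positive. Under that filter 2 of 10 were negative and 2 positive, against 6.6% and 12.8% of all genes, and the list median was -0.37. Signalling kinases Jak1 (1.49 ± 0.40) and Tyk2 (1.55 ± 0.36) and the transcription factor gene Stat4 (1.96 ± 0.52) were the 3 positive members of 15 JAK-STAT genes tested. The JAK-STAT list median was 0.05 over 15 and -0.43 with median centring. Tyk2 was lowered by dorsomorphin in both states, with effects of -2.96 and -1.40.

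In the Bcl2 family the median was 0.46 over 11, and -0.01 with median centring. Under the 60th percentile filter 2 of 11 were negative and none positive. The negative members were Bid, which promotes death, at -2.27 ± 0.33 and Bcl2l1, which encodes the survival protein Bcl-xL, at -1.78 ± 0.54. Bid measured 286 and 272, then 102 and 95, then 1561 and 1762, then 105 and 140 in control, dorsomorphin, stimulated and doubly treated cells. DNA replication genes had a median of -0.52 over 24 and 3 negative members of 23 under that filter, Ung, Mcm3 and Mcm5. Of 14 p53 response genes tested under that filter, Plk3 (-2.33 ± 0.51) was negative and Gadd45a (1.70 ± 0.42) and Btg2 positive. These p53 shares were near the 6.6% negative and 12.8% positive of all genes. Anergy genes held 2 positive members of 10 tested under that filter. They were Dgka, a diacylglycerol kinase, at 2.52 ± 0.72 and the ubiquitin ligase gene Rnf128 at 1.45 ± 0.35.

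Among markers of CD8 and natural killer cells (median 0.46 over 10, -0.01 with median centring), Gzmb, the granzyme B gene, measured 124 and 89.7 in control, 78.9 and 107 with dorsomorphin, 2659 and 3156 after stimulation, and 111 and 214 with both, an interaction of -4.03 ± 0.55. Klrd1, a receptor of natural killer cells, measured 1194 and 973, then 306 and 200, then 68.9 and 37.1, then 373 and 195, an interaction of 4.54 ± 0.66. Both passed under the 60th percentile filter, where 7 of the list were tested and 1 passed in each direction. Over all genes 6.6% were negative and 12.8% positive there, so so few members say little about the list.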
